A study of Homo sapiens with 9 samples.

Results

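Oxaliplatin-resistant IGROV-1/OHP cells (OHP) and cisplatin-resistant IGROV-1/Pt1 cells (Pt1) were compared directly, with 3 arrays of each line, 6 of the 9 arrays of the series. Both are variants of IGROV-1, a human ovarian carcinoma cell line, selected by exposing the parental cells to a platinum drug. The parental arrays are the other 3 and did not enter the test of OHP against Pt1. Every named probe on the array was used, reduced to 1 probe for each of 18852 genes. The sample labels call OHP oxaliplatin-resistant and Pt1 cisplatin-resistant, whereas the design text of the series names cisplatin as the selecting drug for both, so the drug behind OHP is uncertain. The samples of a line are described as 3 biological replicates, frozen from exponentially growing cultures. Doses, the length of the selection and whether a line is 1 clone are not given in the sources used here. A difference between the lines therefore compares these cultures and cannot be assigned to a drug.

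Platinum drugs enter cells partly through copper and organic cation transporters, are bound by glutathione and metallothioneins, are pumped out by ABC transporters and form adducts between neighbouring bases of DNA. Cisplatin adducts are removed mainly by nucleotide excision repair and signal through p53 to growth arrest or death. Oxaliplatin carries a bulkier ring-shaped carrier ligand than cisplatin, and its adducts are recognised less well by mismatch repair. Resistant lines can differ from their parent in any of these steps, and in lineage genes with no known link to platinum. The question of the comparison was in which genes 2 resistant lines of one origin differ from each other.

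Levels are given as log2 intensity of the gene's probe, after background correction of the deposited values, and differences as log2 fold change of OHP over Pt1 with the standard error (SE) of the limma fit over 3 arrays a line. Levels of different probes are not comparable with each other. Calling a gene required a 2-sided p, adjusted by Benjamini-Hochberg over all 18852 genes, under 0.05. A background ceiling of 303.8 intensity units, about 7.7 on the log2 scale, was set from 431 probes of olfactory receptors, which ovarian cells are not known to use. Where one line lay at or under it on all its arrays, the fold is given as a bound on the deposited scale. Medians of the deposited intensities were 228.21 to 228.33 on the 6 arrays, and 10279 to 10377 genes lay above the ceiling on each.

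OHP array 2 stood apart from the other OHP arrays. Its Pearson correlation over all genes was 0.942 with OHP array 1 and 0.926 with OHP array 3, whereas those 2 correlated at 0.99 with each other and the Pt1 arrays at 0.993 to 0.994. It correlated at 0.905 to 0.911 with the Pt1 arrays and at 0.957 with parental array 2. The root mean square deviation from the mean of the line was 0.609 for OHP array 2, against 0.298 and 0.4 for OHP arrays 1 and 3 and 0.154 to 0.168 for the Pt1 arrays. Counts are therefore also given without it. Of the ovarian and epithelial markers, PAX8, the lineage transcription factor of Müllerian tumours, was clear in both lines at 13.33, 14.79 and 13.06 in OHP cells, against 13.63, 13.51 and 13.71 in Pt1 cells. WT1, another such marker, was at background on each of the 6 arrays, and MUC16, the gene of CA-125, lay near it at 7.93 to 8.22 in OHP cells, against 7.54 to 8.05 in Pt1 cells.

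Of the 18852 genes, 850 were called (4.51%), 347 higher in OHP (1.84%) and 503 lower in OHP (2.67%). At least 2-fold apart were 726 of them (3.85%), 292 higher and 434 lower, and the median absolute log2 fold change of a called gene was 1.56, against a median log2 fold change of 0.01 over all genes. All 3 arrays of one line lay above all 3 of the other for every called gene, as they did for 5229 genes in all (27.7%). In 116 of the genes higher in OHP the Pt1 arrays were all at background, and in 193 of the genes lower in OHP the OHP arrays were all at background. Without OHP array 2 the number called was 2822, 1332 higher (7.07%) and 1490 lower (7.90%), and all 850 genes were among them with the same sign. Leaving out another array gave fewer calls, between 325 without Pt1 array 3 and 738 without OHP array 3. The smallest absolute log2 fold change among the 850 was 0.69. The counts of each gene list below stand against the shares of 1.84% higher and 2.67% lower over all genes, and a list whose share is near these is not set apart from the rest.

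**Figure D1:**
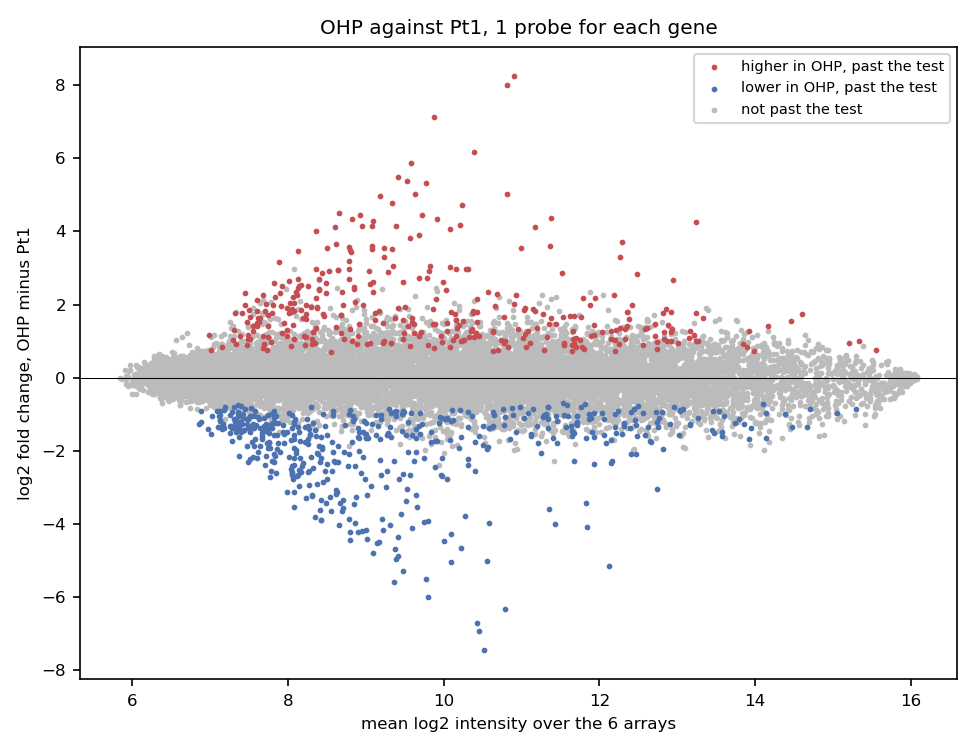
Each point is a gene, at its mean log2 intensity over the 6 arrays (x) and its log2 fold change of OHP over Pt1 (y). Red points were called higher in OHP (347), blue points lower in OHP (503), and grey points were not called. The farthest points are PAGE1 at 8.26 and FAM107A at -7.46.

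Of the 15 genes highest in OHP over Pt1, all but FOLR3 and APBB1IP were at background on every Pt1 array. Their products include cancer-testis antigens, a muscle-type tropomyosin, a lipid-sensing nuclear receptor and a drug-hydrolysing esterase. PAGE1, a germline gene of the P antigen family that tumours can switch on, read 15.39, 14.57 and 15.14 in OHP cells, against 6.77, 7.03 and 6.52 in Pt1 cells. The lines did not overlap, and the difference was 8.26 ± 0.26, adjusted p = 2.17e-05, or at least 111-fold higher. TPM2, which encodes beta-tropomyosin, a coat protein of actin filaments, read 14.34, 15.71 and 14.39 in OHP cells, against 6.59, 7.17 and 6.68 in Pt1 cells. OHP array 2 was the highest of the 6, and every OHP array was far above every Pt1 array, at 8.0 ± 0.39, adjusted p = 8.81e-05 and at least 95.2-fold higher. MAGEA10, a cancer-testis antigen of the MAGE family on the X chromosome, read 13.53, 13.37 and 13.45 in OHP cells, against 6.39, 6.27 and 6.27 in Pt1 cells. Its replicates lay close together in both lines, and the difference was 7.14 ± 0.15, adjusted p = 1.09e-05, at least 37.1-fold higher.

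CES1, the main liver carboxylesterase, which cleaves ester drugs and lipids, read 13.56, 13.90 and 12.98 in OHP cells, against 7.02, 7.25 and 7.66 in Pt1 cells. With Pt1 at background, CES1 was at least 37.9-fold higher in OHP (6.17 ± 0.29, adjusted p = 7.26e-05). PPARG, the nuclear receptor for fatty acids that drives fat cell differentiation, read 12.35, 12.87 and 12.32 in OHP cells, against 6.79, 6.84 and 6.32 in Pt1 cells. All Pt1 arrays were at background, and PPARG was at least 19.6-fold higher in OHP (5.86 ± 0.23, adjusted p = 4.63e-05). CRYAB, the small heat shock protein alpha-B crystallin, read 12.21, 11.76 and 12.44 in OHP cells, against 6.57, 7.45 and 7.34 in Pt1 cells. Again the Pt1 arrays were at background, and CRYAB was at least 15.2-fold higher in OHP (5.02 ± 0.30, adjusted p = 0.000188). RADX, a single-strand DNA binding protein of replication forks, read 10.88, 10.86 and 10.98 in OHP cells, against 6.17, 6.54 and 6.52 in Pt1 cells. The 3 OHP arrays lay close together, and RADX was at least 6.64-fold higher in OHP (4.50 ± 0.17, adjusted p = 4.04e-05).

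FOLR3, the secreted gamma form of the folate receptor, read 13.67, 13.17 and 13.13 in OHP cells, against 7.97, 8.53 and 8.38 in Pt1 cells. Pt1 was itself above the ceiling of 303.8 here, at 346.7, 465.2 and 430.6 intensity units, so no bound is given. The fitted difference was 5.03 ± 0.23, adjusted p = 7.26e-05, and with Pt1 so near the ceiling its size should be read with caution. APBB1IP, also called RIAM, which links the GTPase RAP1 to integrin activation, read 12.50, 12.64 and 12.65 in OHP cells, against 7.84, 7.92 and 7.85 in Pt1 cells and differed by 4.73 ± 0.15, adjusted p = 2.17e-05. ARHGEF6, an exchange factor for RAC and CDC42, was at least 11.1-fold higher (4.98 ± 0.23, adjusted p = 7.26e-05). SLC7A8, the light chain of the neutral amino acid transporter LAT2, was at least 13.4-fold higher (4.46 ± 0.35, adjusted p = 0.000689), with OHP array 2 at 12.79 above the 11.59 and 11.48 of arrays 1 and 3. The other 4 of the 15 largest were CT55, a cancer-testis gene, at least 15.3-fold higher (5.49 ± 0.36, adjusted p = 0.000301), CPED1, at least 16-fold higher (5.39 ± 0.16, adjusted p = 2.11e-05), TMEM98, a membrane protein, at least 18.6-fold higher (5.32 ± 0.15, adjusted p = 2.11e-05) and CHST13, a chondroitin sulfotransferase, at least 11.5-fold higher (4.78 ± 0.24, adjusted p = 8.94e-05). Pt1 was at background on every array for these 4. Next in size, just outside the 15, was SCD5 at 4.44, a stearoyl-CoA desaturase.

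The genes lowest in OHP were as far apart. They include matrix, cytoskeletal and enzyme genes that Pt1 expressed, most of them at background on at least 2 OHP arrays. FAM107A, an actin-associated stress response gene, read 6.37, 7.04 and 6.96 in OHP cells, against 14.23, 14.27 and 14.26 in Pt1 cells. The Pt1 arrays lay close together, and OHP was at least 64.6-fold lower (-7.46 ± 0.21, adjusted p = 2.11e-05). SPON1, the secreted matrix protein F-spondin, read 7.21, 7.01 and 6.78 in OHP cells, against 14.05, 13.84 and 13.87 in Pt1 cells. No OHP array passed the ceiling, and SPON1 was at least 51.4-fold lower in OHP (-6.92 ± 0.18, adjusted p = 2.11e-05). SGCE, epsilon-sarcoglycan, an imprinted gene, read 6.17, 8.33 and 6.75 in OHP cells, against 13.87, 13.80 and 13.67 in Pt1 cells. OHP array 2 alone of the OHP arrays was above the ceiling, and the SE is accordingly wide at -6.70 ± 0.51, adjusted p = 0.000628.

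MAL, a proteolipid of apical membrane rafts, read 7.41, 7.97 and 7.50 in OHP cells, against 13.73, 14.03 and 14.10 in Pt1 cells, -6.33 ± 0.21, adjusted p = 3.12e-05. MCUB, the subunit that dampens the mitochondrial calcium uniporter, read 6.62, 7.20 and 6.59 in OHP cells, against 12.72, 12.98 and 12.73 in Pt1 cells. MCUB was at background in OHP and at least 24-fold lower there (-6.01 ± 0.22, adjusted p = 3.63e-05). Among enzymes, PTGR1, which reduces prostaglandins, leukotrienes and reactive alkenals, read 6.63, 6.53 and 6.56 in OHP cells, against 12.38, 11.94 and 12.14 in Pt1 cells. ALDH2, the mitochondrial aldehyde dehydrogenase, read 6.90, 7.66 and 6.47 in OHP cells, against 12.65, 12.66 and 12.29 in Pt1 cells. Both were at background on every OHP array, PTGR1 at least 15.3-fold lower (-5.58 ± 0.17, adjusted p = 2.17e-05) and ALDH2 at least 19.9-fold lower (-5.52 ± 0.31, adjusted p = 0.000161). NES, the intermediate filament protein nestin, was at background on every OHP array and at least 15-fold lower (-5.30 ± 0.19, adjusted p = 3.63e-05), and EEF1A2, a tissue-restricted translation elongation factor, was lower by 5.16 on the log2 scale although OHP stayed above background (9.37, 10.21 and 9.06 in OHP cells, against 14.68, 14.66 and 14.77 in Pt1 cells). CALCRL, the receptor for adrenomedullin and CGRP, read 6.89, 7.01 and 6.84 in OHP cells, against 12.34, 11.30 and 11.96 in Pt1 cells and was at least 12.6-fold lower in OHP (-4.95 ± 0.27, adjusted p = 0.000143). ADM, which encodes its ligand adrenomedullin, was lower in OHP too, at 7.87, 8.12 and 8.04 in OHP cells, against 10.64, 11.18 and 11.34 in Pt1 cells, a difference of -3.05 ± 0.22, adjusted p = 0.000485.

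Of the remaining largest falls, the transcription factor gene NFIB differed by -5.01 ± 0.24, adjusted p = 8.21e-05, the centrosomal and spindle gene TACC1 by -5.05 ± 0.19, adjusted p = 4.04e-05, and the adhesion glycoprotein gene SMAGP, at background on every OHP array, was at least 12.5-fold lower (-4.88 ± 0.21, adjusted p = 6.24e-05). MCOLN2, a lysosomal cation channel, was at least 9.82-fold lower (-4.80 ± 0.22, adjusted p = 7.26e-05). CMTM3, a MARVEL-domain protein, was at least 11.5-fold lower by its brightest probe (-4.69 ± 0.16, adjusted p = 3.41e-05), whereas its second probe read 7.6 in OHP and 7.73 in Pt1 on average, a difference of -0.12. For called genes as a whole, 200 further probes lay above the ceiling in one line, and 188 of them (94%) had the direction of the gene's main probe, with 0 past the test the other way. All 30 of these largest differences kept their call with any 1 array left out and in every other setting tried.

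**Figure D2:**
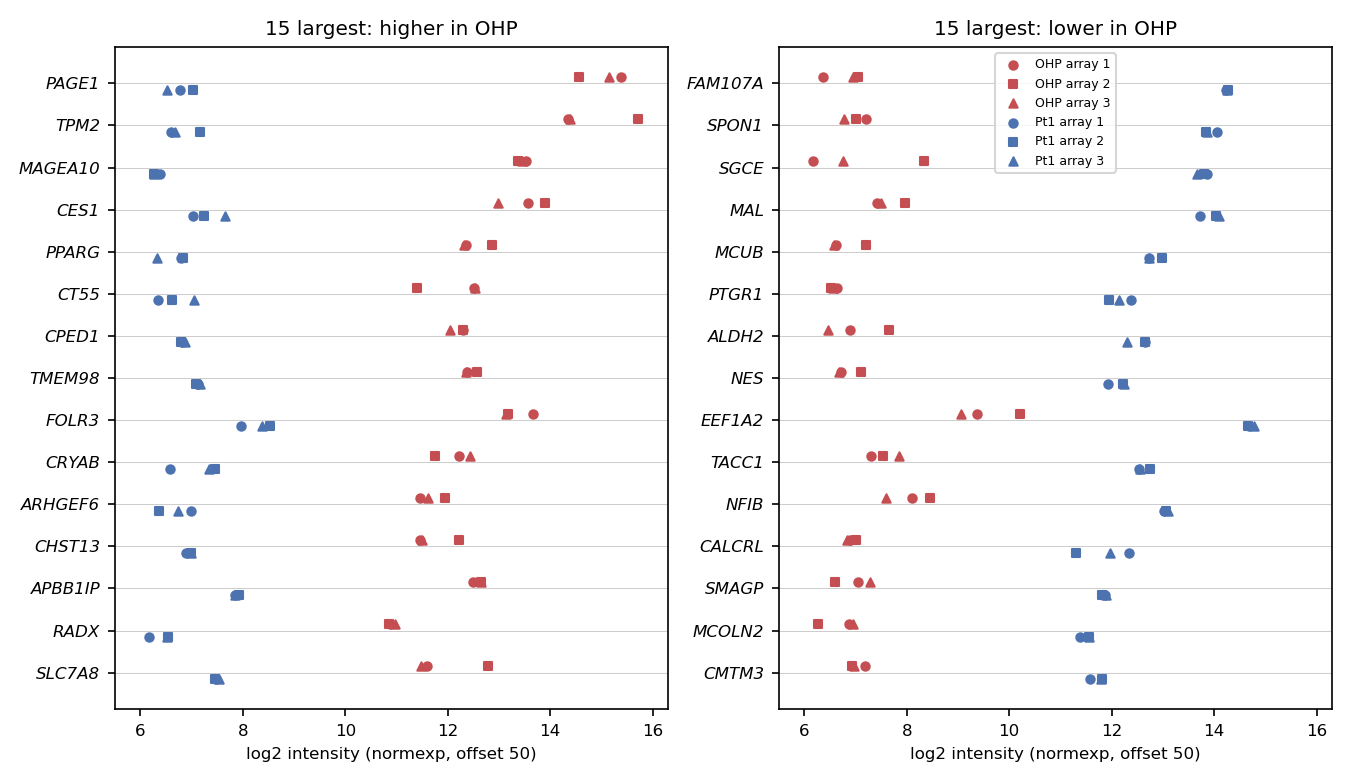
The 15 genes with the largest rises (left) and the 15 with the largest falls (right) in OHP over Pt1, as log2 intensity on each of the 6 arrays. Red symbols are OHP arrays and blue symbols Pt1 arrays, with 1 shape for each array number. The lines do not overlap in any of the 30 genes, and OHP array 2 lies apart from the other OHP arrays in TPM2, CT55, SGCE and SLC7A8.

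Of 19 measured platinum transporters and efflux pumps, 2 were higher in OHP and 1 was lower, beside 1.84% and 2.67% of all genes, and the median log2 fold change was 0.02. The difference farthest from 0 among the 3 was in SLC47A1, the proton-coupled exporter MATE1, which carries organic cations and platinum drugs, at 7.53, 7.14 and 7.23 in OHP cells, against 11.29, 11.14 and 11.57 in Pt1 cells. All OHP arrays were at background, at least 8.82-fold lower than Pt1 (-4.04 ± 0.19, adjusted p = 8.26e-05), and the call held with any 1 array left out. SLC31A2, the low-affinity copper transporter CTR2, was higher (1.03 ± 0.17, adjusted p = 0.0195), as was LRRC8D, a subunit of the volume-regulated anion channel that admits platinum drugs (0.83 ± 0.17, adjusted p = 0.0437). Both of those calls were lost when any array other than OHP array 2 was left out, with adjusted p up to 0.117 for SLC31A2 and up to 0.208 for LRRC8D, and with trended robust eBayes. Without OHP array 2, 5 of the 19 were higher and 3 lower.

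SLC31A1, the copper transporter CTR1 that takes up cisplatin, read 11.14, 8.91 and 11.68 in OHP cells, against 11.42, 11.30 and 11.10 in Pt1 cells. OHP array 2 lay far under the other 5 arrays, so the difference of -0.70 ± 0.67, adjusted p = 0.642 rests on that array, and without it the value was 0.14. The copper-exporting pumps differed little, ATP7A by -0.10 ± 0.23, adjusted p = 0.862 and ATP7B by 0.02 ± 0.19, adjusted p = 0.976. The P-glycoprotein gene ABCB1 read 9.91, 10.57 and 10.41 in OHP cells, against 10.18, 10.42 and 10.36 in Pt1 cells, with the arrays interleaved (-0.02 ± 0.22, adjusted p = 0.968). ABCC2, an apical pump for glutathione conjugates, read 9.58, 10.56 and 9.55 in OHP cells, against 10.33, 11.04 and 10.85 in Pt1 cells and did not pass (-0.84 ± 0.33, adjusted p = 0.256), although without OHP array 2 it was lower by 1.18 (adjusted p = 0.00383). The related pump ABCC3 differed by -0.23 ± 0.36, adjusted p = 0.786.

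None of 9 measured metallothioneins passed the test in either direction. Of 39 genes of glutathione metabolism and the NRF2 response, 2 were lower in OHP and 0 higher, with a median of -0.25. Those were GPX2, a glutathione peroxidase (-1.58 ± 0.28, adjusted p = 0.0268), and GSS, glutathione synthetase (-0.87 ± 0.18, adjusted p = 0.0413). Both calls were lost without any 1 array other than OHP array 2 (adjusted p up to 0.109 for GPX2 and 0.205 for GSS). Without OHP array 2, 3 of the 39 were higher and 8 lower, and 1 metallothionein was lower. GSTP1, the glutathione transferase most often tied to platinum, read 15.93, 15.97 and 15.91 in OHP cells, against 15.72, 15.74 and 15.83 in Pt1 cells, near the top of the scale in both lines (0.18 ± 0.14, adjusted p = 0.585).

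In DNA repair, 1 of 26 nucleotide excision repair genes was lower in OHP, beside 2.67% of all genes. This was RPA1, a subunit of the single-strand binding complex RPA, at 13.38, 12.93 and 13.46 in OHP cells, against 14.65, 14.62 and 14.63 in Pt1 cells (-1.37 ± 0.19, adjusted p = 0.00932). The 3 Pt1 arrays lay above the OHP arrays, and the call was lost without any 1 Pt1 array (adjusted p up to 0.0691) and with probes of a gene averaged. ERCC1, the partner of the excision nuclease XPF, differed by -0.23 ± 0.21, adjusted p = 0.626. Of 28 genes of homologous recombination and the Fanconi anaemia pathway none passed, and BRCA1 differed by -0.30 ± 0.20, adjusted p = 0.501. In mismatch repair and translesion synthesis 1 of 19 was higher, SHPRH, a ubiquitin ligase for PCNA (0.71 ± 0.14, adjusted p = 0.0435), a call lost without any 1 array other than OHP array 2 (up to 0.199) and in 4 other settings. The medians of the 3 lists were -0.07, -0.08 and -0.10, and without OHP array 2 the counts were 1 higher and 1 lower, 1 higher and 3 lower, and 1 higher and 1 lower in that order.

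Of 29 p53 target genes, 1 was higher and 3 were lower in OHP, with a median of 0.02. TP53I3, an oxidoreductase gene induced by p53, read 7.32, 8.11 and 7.86 in OHP cells, against 10.82, 10.57 and 10.85 in Pt1 cells, lower in OHP on every array (-2.99 ± 0.24, adjusted p = 0.000728). TP53INP1, a stress-induced autophagy gene, was at least 2.21-fold lower (-1.82 ± 0.19, adjusted p = 0.00303). CDKN1A, which encodes the cell cycle inhibitor p21, read 10.23, 9.82 and 9.88 in OHP cells, against 11.02, 11.63 and 11.24 in Pt1 cells (-1.32 ± 0.22, adjusted p = 0.0198). The p21 call was lost without OHP array 3 or any 1 Pt1 array (adjusted p up to 0.107) and with probes of a gene averaged. GDF15, a stress cytokine, went the other way at 13.21, 12.75 and 13.82 in OHP cells, against 11.87, 10.83 and 11.66 in Pt1 cells (1.80 ± 0.37, adjusted p = 0.0429), a call lost without any 1 array other than OHP array 2 (up to 0.157). MDM2, the ubiquitin ligase of p53, did not pass (-0.72 ± 0.27, adjusted p = 0.23). If OHP array 2 was left out, 2 of the 29 were higher and 6 lower.

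Of 32 genes of the BCL2 family and caspases, 2 were higher and 2 lower. BID, the BH3-only protein that links caspase-8 to mitochondria, read 9.76, 9.90 and 9.68 in OHP cells, against 7.17, 7.18 and 7.23 in Pt1 cells. Pt1 was at background on each array and OHP was at least 3.21-fold higher (2.59 ± 0.15, adjusted p = 0.000179), a call kept with any 1 array left out. CASP4, an inflammatory caspase, was higher (0.94 ± 0.17, adjusted p = 0.0276), and the BH3-only genes BIK (-1.72 ± 0.26, adjusted p = 0.0132) and BMF, at least 1.48-fold lower with OHP at background (-1.47 ± 0.20, adjusted p = 0.00895), were lower. These 3 calls were less steady: CASP4 lost it without any 1 array other than OHP array 2 (up to 0.146), BIK without Pt1 array 2 or 3 (up to 0.0852), and BMF without Pt1 array 1 or 3 (up to 0.0695). CASP4 and BMF also lost it with probes of a gene averaged, CASP4 and BIK with the replicate number as a block, and CASP4 with trended robust eBayes. Further CASP4 probes, not above the ceiling on all arrays of either line, differed by -0.18 and -0.38. The anti-apoptotic BCL2 and BCL2L1 differed by -0.80 ± 0.21, adjusted p = 0.0963, and by -0.43 ± 0.16, adjusted p = 0.245, and were not called. With OHP array 2 left out, both were lower, BCL2 at adjusted p = 0.00741 and BCL2L1 at 0.0437.

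Interferon-stimulated genes were lower in OHP as far as they passed. These genes are switched on when interferon receptors, or sensors of viral nucleic acid, activate STAT and IRF transcription factors, and most of their products restrict viruses. Of 40 measured, 7 were called lower and 0 higher, beside 2.67% and 1.84% of all genes, and the median log2 fold change was -0.75, against 0.01 over all genes. All 3 Pt1 arrays lay above all 3 OHP arrays in 19 of the 40, and the reverse held in 2, beside 13.9% of all genes in each direction. When OHP array 2 was left out, 17 were lower and 0 higher, and without another array 2 to 6 were lower and 0 higher, with 2 without OHP array 1, Pt1 array 1 or Pt1 array 2. The fall of this list in OHP over Pt1 was already known from these arrays when it was chosen.

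The ubiquitin ligase gene HERC6 read 6.89, 6.48 and 6.73 in OHP cells, against 9.94, 10.06 and 9.79 in Pt1 cells, at background on every OHP array and at least 3.53-fold lower (-3.23 ± 0.18, adjusted p = 0.000144). Its neighbour HERC5, the ligase that attaches ISG15 to proteins, read 7.16, 6.99 and 7.48 in OHP cells, against 9.91, 10.05 and 9.30 in Pt1 cells and was at least 3.16-fold lower (-2.54 ± 0.25, adjusted p = 0.0021). ISG15, the ubiquitin-like modifier itself, stayed bright in both lines at 11.17, 11.65 and 10.99 in OHP cells, against 13.04, 13.01 and 12.48 in Pt1 cells (-1.57 ± 0.25, adjusted p = 0.0171). OHP arrays were all under Pt1 arrays in these 3 genes, with Pt1 array 3 the lowest of its line each time. SAMD9, a growth-restraining antiviral factor, differed by -1.86 ± 0.30, adjusted p = 0.0174, and IFI44L, an interferon-induced protein, by -1.28 ± 0.24, adjusted p = 0.0323. HERC6 and HERC5 kept their calls with any 1 array left out. ISG15 and SAMD9 lost theirs without OHP array 1, Pt1 array 1 or Pt1 array 2 (adjusted p up to 0.108 and 0.0964), and IFI44L without OHP array 1 or 3 or Pt1 array 1 or 2 (up to 0.172). IFI44L also lost its call with probes of a gene averaged.

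The promoters of 4 of the called genes are shown because the list moved in 1 direction and interferon-responsive promoters are known for a paired GAAA element. They are the RefSeq windows of 300 bases, 250 before and 50 after the gene's start, on GRCh38.p14 and on the strand of the gene, searched on both strands for GAAA followed, after any 2 bases, by GAAA (read on the other strand as TTTC, any 2 bases, TTTC). Matches are in capitals, and those that overlap run together.
ISG15 (chr1:1013247-1013546, plus strand): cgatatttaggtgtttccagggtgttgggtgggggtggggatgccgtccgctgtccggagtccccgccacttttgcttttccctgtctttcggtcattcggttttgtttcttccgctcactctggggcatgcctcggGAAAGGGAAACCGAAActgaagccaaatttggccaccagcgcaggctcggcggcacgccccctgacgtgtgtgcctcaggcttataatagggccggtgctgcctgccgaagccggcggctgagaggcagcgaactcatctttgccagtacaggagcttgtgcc
HERC5 (chr4:88456869-88457168, plus strand): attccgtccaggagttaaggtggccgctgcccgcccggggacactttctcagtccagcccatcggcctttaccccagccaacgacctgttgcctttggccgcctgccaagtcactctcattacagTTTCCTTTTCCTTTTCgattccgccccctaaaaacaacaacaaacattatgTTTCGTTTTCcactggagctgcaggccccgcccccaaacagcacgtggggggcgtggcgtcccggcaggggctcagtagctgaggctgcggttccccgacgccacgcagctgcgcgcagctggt
IFI44L (chr1:78620198-78620497, plus strand): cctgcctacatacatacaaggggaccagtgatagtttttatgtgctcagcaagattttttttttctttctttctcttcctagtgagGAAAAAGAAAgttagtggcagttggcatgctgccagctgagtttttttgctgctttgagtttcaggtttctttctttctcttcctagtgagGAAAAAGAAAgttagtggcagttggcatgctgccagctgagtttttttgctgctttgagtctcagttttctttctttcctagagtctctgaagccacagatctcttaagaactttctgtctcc
IFIH1 (chr2:162318635-162318934, minus strand): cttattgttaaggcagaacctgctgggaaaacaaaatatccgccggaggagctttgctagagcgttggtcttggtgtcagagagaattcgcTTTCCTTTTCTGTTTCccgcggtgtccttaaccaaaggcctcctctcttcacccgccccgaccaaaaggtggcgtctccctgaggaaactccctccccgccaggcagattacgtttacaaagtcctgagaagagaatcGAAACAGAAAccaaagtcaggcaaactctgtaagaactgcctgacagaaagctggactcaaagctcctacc
ISG15 holds 2 matches, HERC5 3, IFI44L 2 and IFIH1, the RNA sensor MDA5 that was also called lower, 3. Over the whole list 22 of 33 genes with a promoter in the table held a match, and 5 of the 7 called genes, against 1255 of 35116 promoters (3.57%). SAMD9 held 1, and HERC6 and CMPK2, the seventh called gene, held none in this window. A match is a run of letters, and whether a factor bound there was not measured.

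**Figure D3:**
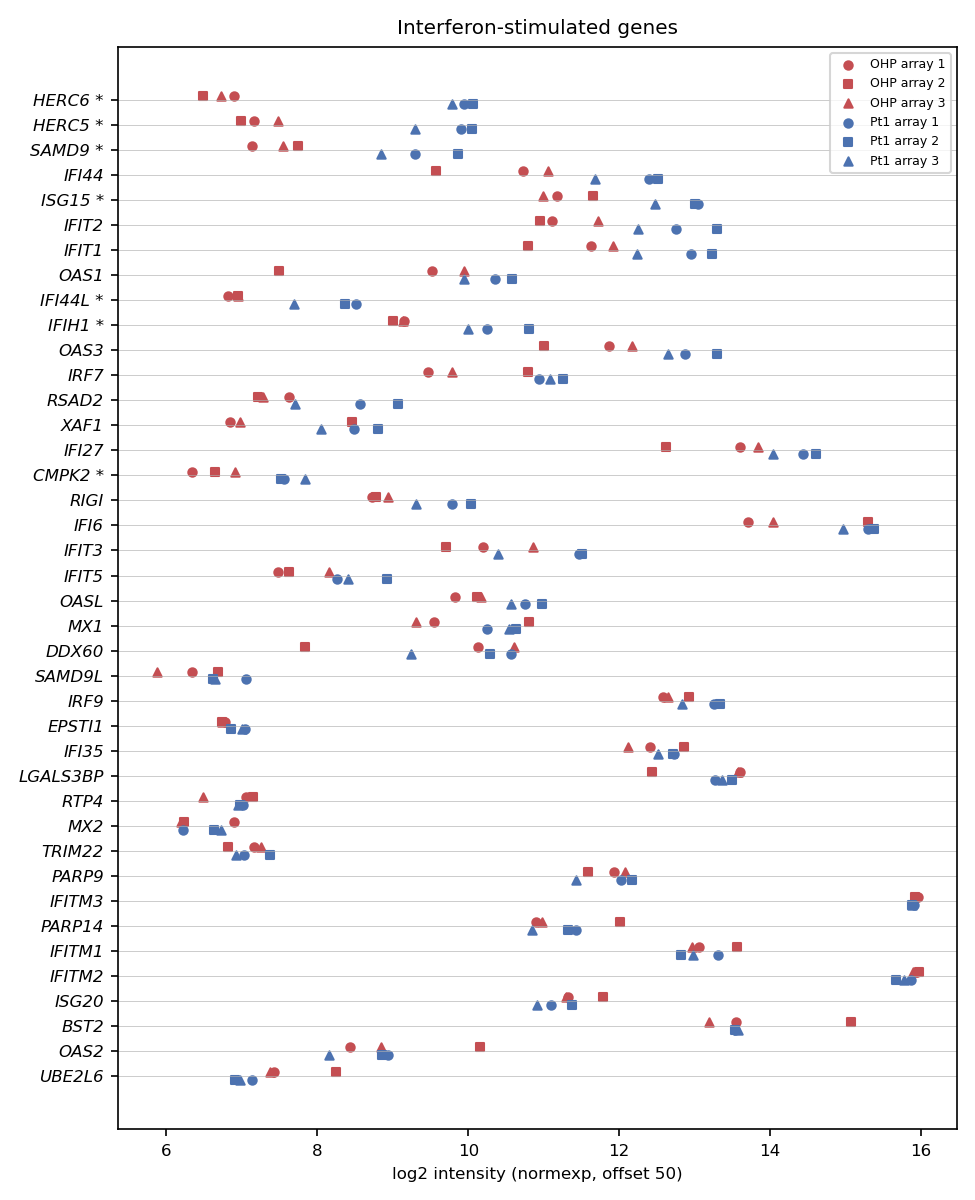
Log2 intensity of the 40 measured interferon-stimulated genes on each of the 6 arrays, ordered by log2 fold change, OHP in red and Pt1 in blue, with an asterisk on the 7 called genes. In the upper rows red symbols lie left of blue ones, in 19 genes with no overlap, and in the lowest rows the colours mix or turn round.

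Of 19 genes of MHC class I presentation, 1 was lower, beside 2.67% of all genes: PSMB8, an interferon-inducible subunit of the immunoproteasome, at 12.09, 12.33 and 11.80 in OHP cells, against 13.12, 12.99 and 13.04 in Pt1 cells (-0.97 ± 0.19, adjusted p = 0.0348), a call lost without any 1 array other than OHP array 2 (up to 0.172). On the other 5 arrays, without OHP array 2, 3 were higher and 2 lower. None of 14 MHC class II genes passed, and 3 were higher without OHP array 2. Of 33 chemokines, cytokines and NF-kB targets, 2 were higher and 2 lower. CCL20, which draws CCR6-bearing lymphocytes, read 13.96, 12.59 and 13.18 in OHP cells, against 8.79, 9.65 and 8.89 in Pt1 cells and was higher (4.13 ± 0.39, adjusted p = 0.00168), while CCL2, the monocyte attractant, read 10.00, 8.87 and 9.40 in OHP cells, against 12.88, 13.76 and 13.67 in Pt1 cells and was lower (-4.01 ± 0.36, adjusted p = 0.00128). The 2 chemokines thus went opposite ways, each with no overlap and each with its call kept when any 1 array was left out. CXCL2, a neutrophil attractant, was higher (1.29 ± 0.23, adjusted p = 0.0243), and CXCL10, an interferon-induced T cell attractant, was lower (-2.97 ± 0.46, adjusted p = 0.0159). Those calls were lost without any 1 array other than OHP array 2 for CXCL2 (up to 0.0985), and without OHP array 1 or any 1 Pt1 array for CXCL10 (up to 0.0806). If OHP array 2 was left out, 4 of the 33 were higher and 8 lower.

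Of 26 genes of complement and innate defence, 6 were higher in OHP and 2 lower, beside 1.84% and 2.67% of all genes, with a median of 0.00. C5, the complement component whose fragments attract leucocytes and start membrane attack, read 11.36, 12.17 and 11.76 in OHP cells, against 9.04, 8.60 and 8.77 in Pt1 cells, higher on every OHP array (2.96 ± 0.25, adjusted p = 0.000952). LCN2, an iron-withholding defence protein, read 13.67, 14.97 and 13.08 in OHP cells, against 11.02, 10.95 and 11.25 in Pt1 cells (2.83 ± 0.45, adjusted p = 0.0174), with OHP array 2 the highest. CFB, a protease of the alternative pathway, was higher (1.48 ± 0.21, adjusted p = 0.00977), as was the C1r-like protease gene C1RL (1.44 ± 0.29, adjusted p = 0.0443), and C8G, a chain of the membrane attack complex, was lower (-3.21 ± 0.45, adjusted p = 0.00992). C5 kept its call with any 1 array left out. LCN2 lost it without OHP array 1 or any 1 Pt1 array (up to 0.106), CFB without any 1 Pt1 array (up to 0.0643), C1RL without any 1 array other than OHP array 2 (up to 0.185), and C8G without OHP array 1 or Pt1 array 2 or 3 (up to 0.0721). The count higher fell to 1 without any 1 Pt1 array and to 3 without OHP array 1 or 3, and was 7 without OHP array 2.

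Growth factor receptors and their ligands held 10 calls in 51 genes, 2 higher and 8 lower in OHP, beside 1.84% and 2.67% of all genes. GAS6, the ligand of the AXL, TYRO3 and MERTK receptors, read 11.05, 12.33 and 11.07 in OHP cells, against 7.60, 7.76 and 7.59 in Pt1 cells and was higher (3.83 ± 0.35, adjusted p = 0.00152). DDR2, a collagen receptor kinase, was higher too (2.43 ± 0.23, adjusted p = 0.00156). FGF9, a fibroblast growth factor, read 6.22, 6.38 and 6.32 in OHP cells, against 9.76, 9.84 and 9.93 in Pt1 cells, at background on every OHP array and at least 3.35-fold lower (-3.54 ± 0.15, adjusted p = 6.24e-05). NRG1, the neuregulin ligand of ERBB3 and ERBB4, read 6.82, 7.36 and 6.91 in OHP cells, against 10.17, 10.37 and 10.11 in Pt1 cells and was at least 4.23-fold lower (-3.19 ± 0.20, adjusted p = 0.000247), and EPHB6, a kinase-dead ephrin receptor, was at least 1.63-fold lower (-2.31 ± 0.18, adjusted p = 0.000628). These 5 calls held with any 1 array left out. AXL itself read 12.35, 10.50 and 12.06 in OHP cells, against 12.64, 12.75 and 12.72 in Pt1 cells and did not pass (-1.07 ± 0.46, adjusted p = 0.299), with OHP array 2 the lowest. EGFR (0.15 ± 0.23, adjusted p = 0.775) and ERBB2 (0.04 ± 0.35, adjusted p = 0.968) did not pass. With OHP array 2 left out, 7 of the 51 were higher and 15 lower.

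Downstream of those receptors, 0 of 22 MAPK feedback and output genes and 0 of 29 PKC isoforms and PI3K-AKT genes passed, each list with a median of 0.08. With 4.51% called over all genes, lists of these sizes would hold few calls, so the zeros say nothing particular about these pathways. When OHP array 2 was left out, the counts were 4 higher and 1 lower, and 1 higher and 2 lower, and without OHP array 3 1 MAPK gene was lower. PRKCA, protein kinase C alpha, differed by 0.27 ± 0.26, adjusted p = 0.634. Of 35 TGF-beta and BMP genes, 2 were higher and 3 lower. ENG, the co-receptor endoglin, read 6.37, 6.58 and 7.04 in OHP cells, against 9.63, 9.69 and 9.58 in Pt1 cells and was at least 2.93-fold lower (-2.97 ± 0.21, adjusted p = 0.000405), and BMP7, a bone morphogenetic ligand, was at least 2.48-fold lower (-2.59 ± 0.24, adjusted p = 0.00141). INHBB, a chain of activin and inhibin, read 12.40, 11.37 and 11.94 in OHP cells, against 9.73, 9.88 and 10.05 in Pt1 cells, higher in OHP (2.02 ± 0.28, adjusted p = 0.00895). SMAD7, the inhibitory SMAD, was lower (-1.56 ± 0.26, adjusted p = 0.0203) and ID4, at background in Pt1, at least 1.43-fold higher (1.52 ± 0.32, adjusted p = 0.0472). Calls were lost for INHBB without any 1 Pt1 array (up to 0.0689), for SMAD7 without OHP array 1 or any 1 Pt1 array (up to 0.118) and for ID4 without OHP array 1 or 3 or Pt1 array 1 or 3 (up to 0.212). On the other 5 arrays, without OHP array 2, 8 were higher and 7 lower, and without OHP array 1 or any 1 Pt1 array, 0 or 1 was higher and 2 were lower.

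In the Wnt and Notch lists 2 of 38 passed, both Notch ligands and both lower in OHP. JAG1 read 9.49, 9.64 and 9.62 in OHP cells, against 11.35, 11.58 and 11.66 in Pt1 cells (-1.95 ± 0.16, adjusted p = 0.000952), a call kept with any 1 array left out. DLL1 was near background, 6.65, 6.39 and 6.79 in OHP cells, against 8.04, 8.12 and 7.63 in Pt1 cells (-1.32 ± 0.20, adjusted p = 0.0147), and lost its call without OHP array 1 or Pt1 array 1 or 2 (up to 0.0976). If OHP array 2 was left out, 1 of the 38 was higher and 3 were lower, and without OHP array 1, Pt1 array 1 or Pt1 array 2, 1 was lower.

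**Figure D4:**
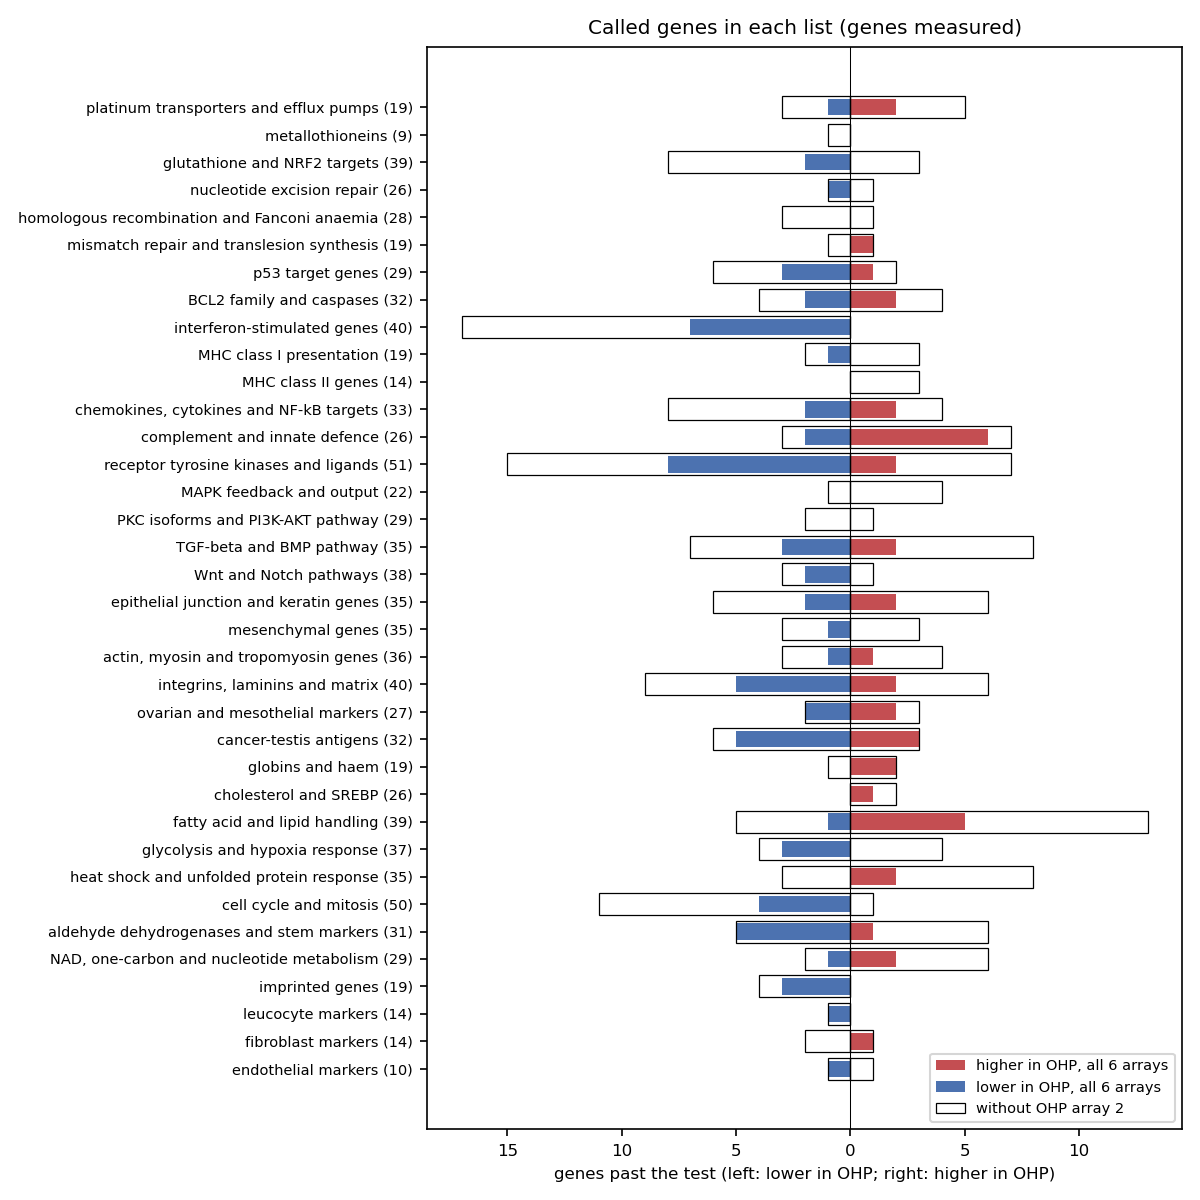
Number of genes past the test in each of the 36 gene lists (genes measured in parentheses), to the right where higher in OHP and to the left where lower. Filled bars use all 6 arrays and outlined bars leave out OHP array 2. The interferon list has 7 genes on the left and 0 on the right, the complement list 6 on the right and 2 on the left, and the outlined bars are as long or longer.

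The lines differed in single epithelial genes, in both directions. Of 35 epithelial junction and keratin genes, 2 were higher and 2 lower, with a median of -0.10. EPCAM, the epithelial adhesion molecule, read 11.79, 9.87 and 11.80 in OHP cells, against 7.14, 7.10 and 6.77 in Pt1 cells. Pt1 was at background on every array and OHP was at least 7.88-fold higher (4.15 ± 0.52, adjusted p = 0.00608), with OHP array 2 well under arrays 1 and 3, and without Pt1 array 3 the adjusted p was 0.0504. KRT7, a keratin of simple epithelium, read 12.86, 13.05 and 12.42 in OHP cells, against 9.38, 9.18 and 9.10 in Pt1 cells and was higher (3.56 ± 0.21, adjusted p = 0.000188). CLDN7, a tight junction claudin, went the other way at 6.62, 6.66 and 6.15 in OHP cells, against 10.35, 10.27 and 10.48 in Pt1 cells, at background in OHP and at least 4.66-fold lower (-3.89 ± 0.19, adjusted p = 8.94e-05). KRT8, another keratin of simple epithelium, read 7.86, 8.20 and 7.59 in OHP cells, against 9.57, 10.42 and 10.13 in Pt1 cells and was lower (-2.16 ± 0.27, adjusted p = 0.00656), with an adjusted p of 0.0543 without Pt1 array 3. CDH1, E-cadherin, read 7.64, 8.73 and 8.05 in OHP cells, against 7.15, 7.41 and 7.10 in Pt1 cells and did not pass (0.92 ± 0.29, adjusted p = 0.16), though it was called higher without OHP array 2 (adjusted p = 0.0424). With OHP array 2 left out, 6 of the 35 were higher and 6 lower, and without Pt1 array 3, 1 each way.

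Of 35 mesenchymal genes, 1 was lower, CALD1, the actin-binding protein caldesmon, at 7.89, 7.95 and 8.16 in OHP cells, against 10.18, 11.14 and 10.34 in Pt1 cells (-2.55 ± 0.27, adjusted p = 0.00311), and without OHP array 2, 3 were higher and 3 lower. VIM, vimentin, read 15.41, 12.92 and 15.62 in OHP cells, against 15.41, 15.41 and 15.35 in Pt1 cells. OHP array 2 was far under the other 5 arrays, and the difference of -0.74 ± 0.67, adjusted p = 0.624 became 0.12 without it. A second VIM probe averaged 14.72 in OHP cells, against 14.7 in Pt1 cells, a difference of 0.01 over all 6 arrays. Among 36 actin, myosin and tropomyosin genes, TPM2 was higher and MYH10, non-muscle myosin IIB, lower (-1.65 ± 0.21, adjusted p = 0.00661, or 0.0515 without Pt1 array 1), and without OHP array 2, 4 were higher and 3 lower. Of 14 fibroblast markers, 9 were at background on all 6 arrays, among them COL1A2, COL3A1, DCN, LUM and FAP, and 1, THY1, was higher in OHP. The summed intensity of the list was 16041 to 49440 in OHP cells, against 66337 to 74604 in Pt1 cells. Most of that sum came from S100A4, which tumour cells also make, at 15.44, 13.37 and 15.47 in OHP cells, against 15.94, 16.12 and 16.09 in Pt1 cells.

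Of 40 integrins, laminins and matrix genes, 2 were higher in OHP and 5 lower, among them SPON1, given above. ITGB2, the beta chain of the leucocyte integrins, read 11.17, 11.22 and 10.77 in OHP cells, against 8.55, 8.20 and 8.21 in Pt1 cells, higher in OHP (2.73 ± 0.20, adjusted p = 0.000474), with its call kept when any 1 array was left out. ITGB3, the beta chain of the vitronectin receptor, read 7.78, 6.77 and 8.34 in OHP cells, against 10.44, 9.98 and 10.31 in Pt1 cells (-2.61 ± 0.39, adjusted p = 0.0134), and ITGA2, the alpha chain of a collagen receptor, read 8.0, 7.09 and 8.63 in OHP cells, against 10.06, 9.91 and 9.78 in Pt1 cells (-2.01 ± 0.37, adjusted p = 0.0302). In both, OHP array 2 was the lowest array. LAMB3, a chain of laminin-332, was lower (-2.05 ± 0.26, adjusted p = 0.00616). ITGB3 and ITGA2 lost their calls without OHP array 1 or any 1 Pt1 array (up to 0.0882 and 0.157), and LAMB3 without Pt1 array 3 (0.0512). When OHP array 2 was left out, 6 were higher and 9 lower, and with 1 other array left out 1 or 2 were higher and 1 to 5 lower, the fewest without Pt1 array 3.

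Markers of leucocytes and endothelium were checked in the same way. Of 14 leucocyte markers 9 were at background on all 6 arrays, PTPRC, CD3D, CD3E and MS4A1 among them, and 1 was called, CORO1A, an actin-binding coronin (-1.50 ± 0.22, adjusted p = 0.0119), lower in OHP and lost without OHP array 1 or Pt1 array 2 or 3 (up to 0.0822). The summed intensity of the list was 3832 to 9206 in OHP cells, against 4078 to 4240 in Pt1 cells, the top value being OHP array 2, where CD68, a lysosomal protein, read 12.5, against 10.09 and 9.49 on OHP arrays 1 and 3. Of 10 endothelial markers 4 were at background, KDR, TEK, CLDN5 and EMCN, and ENG was the 1 called. Their summed intensity was 5803 to 12451 in OHP cells, against 4582 to 5514 in Pt1 cells, and VWF was the brightest. As whole cultures were measured, fewer cells with a transcript and less of it in each cell cannot be told apart for any gene.

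Ovarian and mesothelial markers gave 2 genes higher and 2 lower among 27. KLK11, a kallikrein-related protease secreted by many ovarian tumours, read 12.61, 11.48 and 12.14 in OHP cells, against 7.74, 7.50 and 7.96 in Pt1 cells, higher in OHP (4.34 ± 0.30, adjusted p = 0.000404), and kept its call with any 1 array left out. STC2, a secreted glycoprotein, was higher (1.10 ± 0.17, adjusted p = 0.0166) but lost the call without any 1 Pt1 array (up to 0.106) and with all 9 arrays in the fit, and without any 1 Pt1 array 1 of the 27 was higher and 2 were lower. LRRN4, a mesothelial surface protein, read 7.33, 7.77 and 7.15 in OHP cells, against 10.08, 10.92 and 10.86 in Pt1 cells, lower in OHP (-3.20 ± 0.29, adjusted p = 0.00134). MSLN, mesothelin, was bright in both lines, 13.37, 14.12 and 12.91 in OHP cells, against 13.47, 13.57 and 13.51 in Pt1 cells, and did not pass (-0.05 ± 0.30, adjusted p = 0.949).

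Cancer-testis antigens, germline proteins that tumours often make again, held some of the largest differences in both directions. Of 32 measured, 3 were higher and 5 lower, and no array left out in turn brought the counts of the list under 3 and 5. The called members of the list with the largest differences were PAGE1, MAGEA10, CT45A1, SSX1 and CT45A3. CT45A5 and CT45A6 are given below because they lie in a run of neighbouring called genes, and they need not be among the 5 lower. PAGE1 and MAGEA10, given above, were on in OHP and at background in Pt1. So was CT55, also given above, which is not among the 32 genes of the list and does not enter its counts. On the other side SSX1, a germline repressor gene of the X chromosome, read 9.43, 10.18 and 9.08 in OHP cells, against 12.89, 13.29 and 13.28 in Pt1 cells (-3.59 ± 0.30, adjusted p = 0.00102). CT45A3 read 10.13, 9.83 and 10.38 in OHP cells, against 13.30, 13.74 and 13.60 in Pt1 cells (-3.44 ± 0.21, adjusted p = 0.000225), CT45A1 8.15, 6.72 and 8.62 in OHP cells, against 11.60, 11.85 and 11.82 in Pt1 cells (-3.93 ± 0.46, adjusted p = 0.00474) and CT45A5 7.77, 6.94 and 8.09 in OHP cells, against 10.12, 10.61 and 10.42 in Pt1 cells (-2.78 ± 0.32, adjusted p = 0.00424). CT45A6 was at background in OHP and at least 1.19-fold lower (-0.91 ± 0.19, adjusted p = 0.0435) and lost its call without any 1 array other than OHP array 2 (up to 0.203). The CT45 genes are near-identical copies on the X chromosome, so a probe may take up the transcripts of several, and these 4 readings may be fewer than 4 differences.

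Lipid genes were higher in OHP where they passed, with 1 exception. Of 39 genes of fatty acid and lipid handling, 5 were higher and 1 lower, beside 1.84% and 2.67% of all genes, and the median was 0.19. PPARG, given above, was the largest. CD36, a fatty acid translocase and a known PPARG target, read 8.94, 8.81 and 8.98 in OHP cells, against 7.18, 7.08 and 7.13 in Pt1 cells, at background in Pt1 and at least 1.9-fold higher in OHP (1.78 ± 0.15, adjusted p = 0.000952). LIPG, endothelial lipase, read 13.03, 13.32 and 13.40 in OHP cells, against 12.11, 11.78 and 11.89 in Pt1 cells (1.32 ± 0.18, adjusted p = 0.00888), and PTGS1, the constitutive cyclooxygenase, was higher (1.35 ± 0.23, adjusted p = 0.022), while the exception was PTGR1. LIPG lost its call without Pt1 array 2 or 3 (up to 0.0691) and PTGS1 without OHP array 1 or any 1 Pt1 array (up to 0.127). PTGS1 also lost its call with probes of a gene averaged. On the other 5 arrays, without OHP array 2, 13 of the 39 were higher and 5 lower, whereas without Pt1 array 1, 3 were higher, and without Pt1 array 2 or 3, 2, each with 1 lower.

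Among 26 cholesterol and SREBP genes the median was 0.47 and 1 gene passed. NPC1L1, the sterol importer of intestine and liver, read 11.76, 12.78 and 11.81 in OHP cells, against 8.57, 7.65 and 7.93 in Pt1 cells, higher in OHP (4.07 ± 0.36, adjusted p = 0.00121). If OHP array 2 was left out, the median was 0.29 and 2 were higher. Of 19 globin and haem genes 2 were higher. HBA2, an alpha-globin gene, read 10.62, 10.29 and 9.95 in OHP cells, against 6.57, 6.74 and 6.90 in Pt1 cells, at background in Pt1 and at least 4.43-fold higher in OHP (3.55 ± 0.22, adjusted p = 0.000221), though its near-identical copy HBA1 may contribute to the probe's signal. The embryonic globin HBE1 was at least 1.36-fold higher (1.77 ± 0.24, adjusted p = 0.00811).

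Of 37 genes of glycolysis and the hypoxia response, 3 were lower and 0 higher, with a median of -0.08. ENO2, neuronal enolase, read 7.28, 8.54 and 7.48 in OHP cells, against 12.21, 12.15 and 12.36 in Pt1 cells (-4.47 ± 0.33, adjusted p = 0.000526), HK1, a hexokinase, read 13.39, 13.07 and 13.22 in OHP cells, against 14.52, 14.52 and 14.42 in Pt1 cells (-1.26 ± 0.16, adjusted p = 0.00653), and ADM, given above with its receptor, was the other. HK1 lost its call without Pt1 array 1 or 2 (up to 0.0551) and with probes of a gene averaged. With OHP array 2 left out, 4 were higher and 4 lower. Of 35 heat shock and unfolded protein genes, 2 were higher, CRYAB and HSPB8, a partner of the co-chaperone BAG3 (1.64 ± 0.23, adjusted p = 0.00953), the second lost without any 1 Pt1 array (up to 0.0721). Both are small heat shock proteins. When OHP array 2 was left out, 8 were higher and 3 lower.

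Of 50 cell cycle and mitosis genes, 4 were lower and 0 higher, beside 2.67% and 1.84% of all genes, and the median was -0.36. CDK6, a kinase that drives the entry into S phase, read 7.28, 6.78 and 7.75 in OHP cells, against 11.08, 11.14 and 11.20 in Pt1 cells (-3.87 ± 0.26, adjusted p = 0.000337). CDKN2A, whose product p16 inhibits that kinase, read 6.93, 6.76 and 7.17 in OHP cells, against 10.34, 10.34 and 10.49 in Pt1 cells, at background in OHP and at least 4.74-fold lower (-3.44 ± 0.17, adjusted p = 8.94e-05). The kinase gene and the inhibitor gene were thus both lower in OHP, each kept with any 1 array left out. CDKN1A, given above, and AURKB, a mitotic kinase (-1.06 ± 0.18, adjusted p = 0.0219), were the others, and AURKB lost its call without any 1 array other than OHP array 2 (up to 0.136). On the other 5 arrays, without OHP array 2, 1 was higher and 11 lower, with a median of -0.24, and without OHP array 3 or any 1 Pt1 array, 2 were lower.

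Among 31 aldehyde dehydrogenases and stem markers, 1 was higher and 5 lower, ALDH2 and NES among the 5. ALDH1A3, a retinaldehyde dehydrogenase that contributes to the ALDEFLUOR stain, read 6.96, 6.45 and 6.92 in OHP cells, against 10.38, 10.11 and 10.10 in Pt1 cells, at background in OHP and at least 4.18-fold lower (-3.42 ± 0.20, adjusted p = 0.000183). SOX9, a progenitor transcription factor, was lower (-2.27 ± 0.42, adjusted p = 0.0297), and THY1, a surface glycoprotein, higher (1.64 ± 0.24, adjusted p = 0.0129). Calls were lost for SOX9 without OHP array 1 or any 1 Pt1 array (up to 0.152) and for THY1 without any 1 Pt1 array (up to 0.0893). If OHP array 2 was left out, 6 were higher and 5 lower, and without any 1 Pt1 array, 0 were higher and 3 lower. Of 29 genes of NAD, one-carbon and nucleotide metabolism, 2 were higher and 1 lower. NAPRT, which makes NAD from nicotinic acid, read 11.17, 12.99 and 10.76 in OHP cells, against 8.35, 8.88 and 8.79 in Pt1 cells (2.97 ± 0.55, adjusted p = 0.0312), with OHP array 2 the highest. SHMT1, a cytosolic serine hydroxymethyltransferase, was higher by its brightest probe (1.05 ± 0.19, adjusted p = 0.0274) and NT5E, the ectonucleotidase CD73, lower (-1.06 ± 0.17, adjusted p = 0.0165). Further SHMT1 probes, also above the ceiling, differed by -0.03 and 0.27, and the SHMT1 call was lost with probes of a gene averaged. All 3 calls were lost when 1 array was left out, NAPRT and NT5E without OHP array 1 or any 1 Pt1 array (up to 0.161 and 0.107) and SHMT1 without any 1 array other than OHP array 2 (up to 0.15), and 6 were higher and 2 lower without OHP array 2.

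Of 19 imprinted genes, 3 were lower and 0 higher, and each of the 3 kept its call with any 1 array left out. SGCE and PEG10 are neighbours on chromosome 7 that share an imprinted promoter region and are made from the paternal copy. PEG10, a retrotransposon-derived gene, read 6.75, 7.17 and 6.67 in OHP cells, against 11.07, 11 and 11.09 in Pt1 cells, at background in OHP and at least 7.31-fold lower (-4.19 ± 0.19, adjusted p = 6.64e-05), beside -6.70 for SGCE. PLAGL1, a zinc finger growth suppressor of another imprinted region, was at least 1.69-fold lower (-2.20 ± 0.24, adjusted p = 0.00315). IGF2 was at background on all 6 arrays (0.19 ± 0.16, adjusted p = 0.595). The median of the 19 was 0.09.

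By chromosome, the share of genes called lower in OHP was 6.37% on chromosome 20, 5.38% on chromosome 17 and 4.21% on chromosome 5, against 2.67% over all genes. The share called higher was 2.92% on chromosome 3 and 2.86% on chromosome 19, against 1.84%. The 3 longest runs of neighbouring genes called in 1 direction were all lower in OHP. The first was the 4 CT45 genes of the X chromosome. The second, on chromosome 14, was CRIP2, CRIP1 and TMEM121. CRIP2, a LIM-domain protein, read 7.10, 7.38 and 7.24 in OHP cells, against 11.63, 11.40 and 11.76 in Pt1 cells and was at least 10.5-fold lower (-4.35 ± 0.17, adjusted p = 4.63e-05), its relative CRIP1 differed by -3.53 ± 0.24, adjusted p = 0.000345 and TMEM121 by -1.27 ± 0.18, adjusted p = 0.0106. The third, on chromosome 20, was AP5S1, an adaptor subunit (-1.23 ± 0.17, adjusted p = 0.00932), MAVS, the mitochondrial adaptor that carries the signal of IFIH1 and RIG-I to interferon genes (8.32, 7.97 and 7.96 in OHP cells, against 9.47, 9.86 and 9.91 in Pt1 cells, -1.66 ± 0.20, adjusted p = 0.00501), and PANK2, a pantothenate kinase (-1.28 ± 0.15, adjusted p = 0.00491). Without Pt1 array 1 or 3 the calls on TMEM121 and AP5S1 were lost (up to 0.077 and 0.07).

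Whole neighbourhoods were shifted at a few places. The 8949 genes above the ceiling on all 6 arrays were divided along each chromosome into 359 windows of 25 neighbours, a rule chosen after the values were seen and given with no test. The median log2 fold change of a window ranged from -0.97 to 0.97, with quartiles of -0.12 and 0.16. Each OHP array was compared with the mean of the Pt1 arrays. In 4 windows all 3 OHP arrays had a median at or below -0.5. These were ZNF232 to EIF5A on chromosome 17 (-0.89, -0.95 and -0.95 on OHP arrays 1, 2 and 3), RPH3AL to CLUH on chromosome 17 (-0.86, -0.93 and -0.84), CCDC127 to CMBL on chromosome 5 (-0.86, -0.76 and -0.91) and SLX4IP to CST3 on chromosome 20 (-0.73, -0.91 and -0.77). In these 4 windows 22, 22, 21 and 19 of the 25 genes were lower in OHP, and the 3 OHP arrays read alike, OHP array 2 included.

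In 3 windows all OHP arrays had a median of at least 0.5. In the window from NGEF to PPP1R7 on chromosome 2 the OHP medians were 0.85, 0.96 and 0.55, with 23 of 25 genes higher. On chromosome 19 they were 0.59, 0.92 and 0.51 from SLC7A9 to COX6B1, and 0.74, 1.82 and 0.55 from LSM7 to SIRT6. OHP array 2 was beyond 0.5 either way in 118 windows, against 19 for array 1 and 14 for array 3, and it was above the other OHP arrays over nearly all of chromosome 19, so the height of the chromosome 19 windows rests in part on it. With OHP array 2 left out, the medians of the windows on chromosomes 2 and 19 were 0.62, 0.58 and 0.64. DNA copy number was not measured in these files, and its part in these shifts was not tested.

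**Figure D5:**
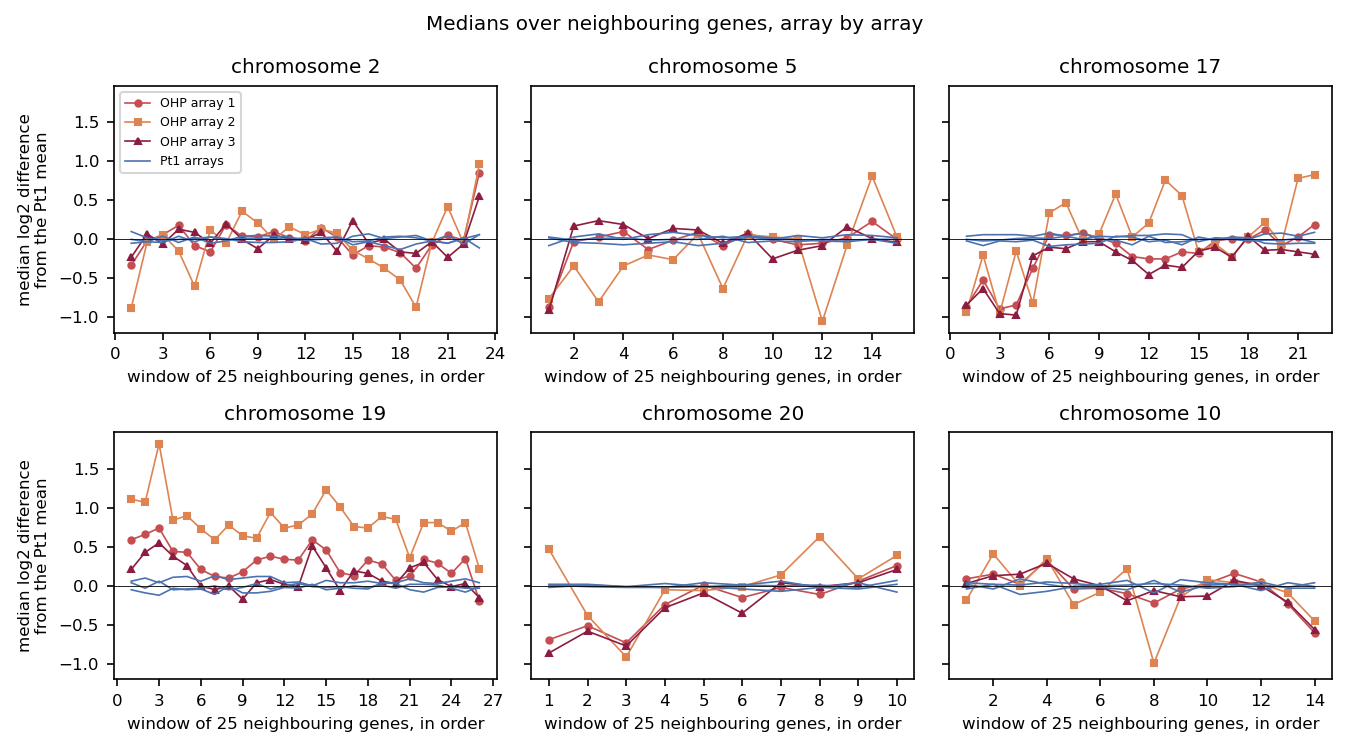
Median log2 difference from the mean of the Pt1 arrays in successive windows of 25 neighbouring genes on chromosomes 2, 5, 17, 19, 20 and 10, for OHP arrays 1 (red circles), 2 (orange squares) and 3 (dark red triangles), with the Pt1 arrays as blue lines near 0. All 3 OHP arrays dip together at the first windows of chromosomes 5 and 17 and at the third window of chromosome 20, and OHP array 2 departs alone in other windows and lies above the other OHP arrays along chromosome 19.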

How the data were processed

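The authors hybridised RNA of 3 samples a line to Illumina bead arrays, and the deposited intensity values for 48803 probes are on a linear scale, with BeadStudio named, without a version, in the submitters' processing notes. Sorted columns of the deposited intensities differed by at most 1.09%, as quantile normalization leaves them. The lowest intensity was 125.13, so the deposited values kept a positive floor. Whether background was subtracted at an earlier step was not tested. A second deposited table has 18 columns, signals and detection p-values of 9 arrays, under array names that match no label, and was not used.

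From there, normexp with offset 50 and log2 were applied with limma 3.58.1 in R 4.3.3. The platform annotation gave 28098 probes 1 symbol, 13 several and 20692 none. Where a gene had several probes, as 6132 of 18852 did, its brightest on average over the 6 arrays was kept. lmFit and eBayes used the 6 arrays (4 residual and 2.91 prior degrees of freedom), 2-sided, with Benjamini-Hochberg adjustment. P-values set the difference between the lines against the spread among the replicate cultures within each line. They do not cover the spread between separately selected lines. The number of arrays limits the precision. The background ceiling, the 97.5 percentile of 431 olfactory receptor probes over the 6 arrays, was chosen after the data were examined. A bound is the geometric mean of the brighter line's deposited intensities over the ceiling. Gene order came from a RefSeq table of GRCh38.p14 that held 18826 of the genes. The fit was tested on data simulated for OHP against Pt1, with 18852 genes and 50 genes shifted by each of 4 log2 sizes. It found 0% of shifts of 0.5, 12% of shifts of 1, 84% of shifts of 2 and 98% of shifts of 3, made 9 false calls and gave 0 a wrong sign. In the simulated data a gene had the same spread on every array. The wider deviation of OHP array 2 was therefore not part of that test, and these rates may not hold for the real arrays.

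The 36 lists held 1086 genes, of which 1005 were measured, and a gene may stand in several. The comparison, the lists and the genes of fixed interest were chosen with earlier results of these data known. Named were the 15 genes that rose most and the 15 that fell most, if called, without overlap and with each array of the brighter line over the ceiling, up to 5 called members of each list, the 3 longest runs of neighbours, and a fixed set of platinum and ovarian cancer genes. SCD5, IFIH1, CMPK2, S100A4, CD68 and VWF were named outside that rule, after their values were seen. ABCC1 is not analysed here. The alternatives left out single arrays, used all 9 arrays, changed the background correction, normalization, filter, probe rule and eBayes setting, weighted the arrays, or added the replicate number as a block. Plots were made with matplotlib 3.10.9 under Python 3.11.15.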

Additional observations from a re-analysis of the deposited data

How the results depend on the processing

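Calls in OHP over Pt1 depended on how the spread of OHP array 2 was treated. Against 850 called genes (347 higher in OHP and 503 lower), all 9 arrays in 1 fit gave 1428 (660 and 768), and array weights, which gave OHP array 2 a weight of 0.112 against 0.631 to 2.19 for the others, gave 3337 (1626 and 1711). The replicate number as a block gave 428 (166 and 262), all at least 2-fold. The deviations of same-numbered OHP and Pt1 arrays correlated at 0.022, -0.012 and -0.194. All 9 pairs spanned -0.194 to 0.193. With 3 arrays a line, these values do not show whether the numbers pair the samples. With 1 array left out the counts ranged from 325 to 2822 called, 114 to 1332 higher and 211 to 1490 lower. Genes called with at least 2-fold numbered 726, against 325 to 1060 with 1 array left out, 428 with the block and 1114 with array weights. The other settings stayed within 1.5 times the main counts. Of 118 called genes named here, 72 kept the call in every setting and none changed sign. The cause of the lost calls was not tested, other than that fewer arrays or degrees of freedom entered.

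Signs turned in named genes that did not pass. With probes averaged, ABCB1 was 0.18, EGFR -0.24 and ERBB2 -0.00. With array weights, ATP7B was -0.10, EGFR -0.14 and ERBB2 -0.33. With 1 array left out, ABCB1 lay between -0.16 and 0.17, ABCC3 between -0.61 and 0.10, ATP7A between -0.31 and 0.01, ATP7B between -0.10 and 0.11, EGFR between -0.01 and 0.36, ERBB2 between -0.37 and 0.26, MSLN between -0.38 and 0.22, SLC31A1 between -1.25 and 0.14 and VIM between -1.23 and 0.12.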

Other observations

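The parental arrays show which line the level of a called gene in the parental cultures lay nearer to, as a description with no test. They are not samples taken from either line before its selection. Of the 347 genes higher in OHP over Pt1, the midpoint of the parental arrays was nearer to OHP in 242 and nearer to Pt1 in 105. Of the 503 genes lower in OHP, it was nearer to OHP in 305 and nearer to Pt1 in 198. The OHP mean used here includes OHP array 2, which correlated at 0.957 with parental array 2. These counts were not repeated without that array. The largest differences held both kinds. PAGE1 and TPM2 were as bright in parental cells (14.56 to 14.84 for PAGE1 and 14.06 to 14.56 for TPM2) as in OHP cells, whereas MAGEA10 at 7.03 to 7.40 and CPED1 at 6.49 to 6.84 were at background in parental cells, as in Pt1 cells. Among the falls, SPON1 read 13.88 to 14.90 in parental cells, on the side of Pt1, and FAM107A read 6.83 to 7.25, on the side of OHP. EPCAM was brighter in parental cells (14.01 to 14.60) than in OHP cells, which in turn lay above Pt1 cells, and the same order held for HBA2 (15.58 to 15.88). ABCB1 read 12.40 to 13.20 in parental cells, above both resistant lines, which did not differ from each other past the test, and MSLN at 7.45 to 7.90 was near the ceiling there and bright in both resistant lines.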
